A study of Mus musculus with 18 samples.

Results

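The tumour suppressor p53, encoded by *Trp53* in the mouse, and 9 genes known as its targets or regulators were followed through E15.5 mouse cerebral cortices by RNA-seq and by Ribo-seq, which sequences the RNA fragments covered by ribosomes. The members were *Trp53*, *Mdm2*, *Cdkn1a*, *Ccng1*, *Bax*, *Phlda3*, *Eda2r*, *Trp53inp1*, *Bbc3* and *Pmaip1*, chosen by name and found by their Ensembl identifiers, and all 10 were present among the 55153 genes of the RNA-seq table and in all 18 libraries. The groups were wild type controls (Ctrl), *F*-cKO embryos with the genotype Fto(f/f, Emx1-cre), and *M*-cKO embryos with the genotype Mettl3(f/f, Emx1-cre), with 3 RNA-seq and 3 Ribo-seq libraries in each. Fto removes and Mettl3 installs N6-methyladenosine (m6A) on RNA. All embryos were labelled C57BL/6 and embryonic day 15.5. By the study's methods the floxed mice carried a mixed C57/BL6 and 129 background. The same controls served both crosses, and whether any of them carried *Emx1-Cre* or a floxed allele alone was not stated. The Ribo-seq methods describe 3 cortical samples as from "1 L", which may mean 1 litter. The methods do not make clear which litters the sequenced cortices of each group came from, so litter and genotype cannot be told apart. The *Emx1* promoter restricts Cre to cells of the dorsal telencephalon, and the other cells of the dissected cortex (interneurons from the ganglionic eminence, vessels, microglia, meninges) kept both genes. Nothing in the labels says whether a library came from 1 embryo or a pool, so the p values measure the spread between these libraries.

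p53 is a transcription factor that is made constantly and kept low by Mdm2, a ubiquitin ligase that marks it for destruction. Stress signals such as DNA damage block that destruction, and p53 then binds DNA as a tetramer and raises genes that stop the cell cycle, repair DNA or trigger mitochondrial cell death, *Mdm2* among them. Because p53 is controlled mainly as a protein, its RNA need not follow its activity. In the embryonic cortex p53 is known for removing neural progenitors after damage or mitotic delay.

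A p53 binding site is built of a pair of 10-base decamers, and the promoters that held such a pair are shown because their genes can be compared below by the same feature. RefSeq windows of assembly GRCm38.p6, from 250 bases before to 50 bases after an annotated start, were counted for 8 members (11 windows). The consensus p53 decamer, which reads the same on both strands, was searched in them. *Trp53inp1* and *Pmaip1* are not among these 8. The counts out of 11 therefore leave them out, and the shares could be lower with all members counted. An exact decamer was found in 5 of the 11 windows, compared to 8.36% of all 32851 windows of that length. A pair of decamers with at most 1 mismatch in all and a spacer of at most 13 bases was found in 3 of the 11, compared to 1.09% of all windows. The 3 windows were those of *Cdkn1a* (chr17:29090729-29091028, plus strand, the more upstream of its 2 windows), *Ccng1* (chr11:40755237-40755536, minus strand) and *Bax* (chr7:45466849-45467148, minus strand). Each is printed 5′ to 3′ with the decamers in capitals.
Cdkn1a: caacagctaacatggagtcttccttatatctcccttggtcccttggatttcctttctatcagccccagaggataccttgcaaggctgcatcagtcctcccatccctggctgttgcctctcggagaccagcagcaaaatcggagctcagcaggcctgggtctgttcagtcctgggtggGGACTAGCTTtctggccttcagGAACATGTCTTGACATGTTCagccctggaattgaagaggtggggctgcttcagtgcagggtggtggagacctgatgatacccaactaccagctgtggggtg
Ccng1: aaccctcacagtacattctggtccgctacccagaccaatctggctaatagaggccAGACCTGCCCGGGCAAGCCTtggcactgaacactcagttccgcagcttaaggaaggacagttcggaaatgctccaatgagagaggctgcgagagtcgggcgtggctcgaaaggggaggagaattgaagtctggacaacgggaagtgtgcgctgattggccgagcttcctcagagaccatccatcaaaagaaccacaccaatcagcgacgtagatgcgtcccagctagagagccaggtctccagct
Bax: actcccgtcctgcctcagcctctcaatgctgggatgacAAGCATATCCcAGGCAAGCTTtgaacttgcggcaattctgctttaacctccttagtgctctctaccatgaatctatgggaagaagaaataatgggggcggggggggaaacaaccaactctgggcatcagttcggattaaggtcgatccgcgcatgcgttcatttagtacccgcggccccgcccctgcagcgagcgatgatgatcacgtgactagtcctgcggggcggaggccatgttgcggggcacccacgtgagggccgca
In *Cdkn1a* the exact decamers began 73 and 51 bases before the start, and the latter was followed directly by a decamer with 1 mismatch that began 41 bases before it. In *Ccng1* an exact decamer began 185 bases before the start, directly after one with 1 mismatch, and in *Bax* the exact decamer began 201 bases before the start. *Mdm2* and *Trp53* held a lone exact decamer, 186 and 75 bases before their starts, and none was found in the windows of *Phlda3*, *Eda2r* and *Bbc3*. A match of letters is not a measured binding site, and p53 sites often lie in introns or farther upstream, outside these windows.

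The RNA-seq libraries held 18504094 to 22592406 counted reads and the Ribo-seq libraries 10973699 to 35853227, so the Ribo-seq depth differed more. In *F*-cKO the *Fto* level was 3.26, 7.56 and 2.43 FPKM in RNA-seq, compared to 8.37 to 11.2 FPKM in Ctrl, and 3.91, 2.11 and 4.04 RPKM in Ribo-seq, compared to 17.6 to 25.9 RPKM, so *F*-cKO RNA-seq replicate 2 held more *Fto* RNA than the others of its group. In *M*-cKO the *Mettl3* RNA was higher than in Ctrl (7.82 to 8.61 against 5.07 to 6.43 FPKM), while its footprints were lower (6.02 to 6.78 against 9.16 to 9.93 RPKM). The deleted exons are only a part of each gene, so gene totals check the labels only in part. *F*-cKO Ribo-seq replicate 2 had the lowest depth and a summed level of 6 endothelial markers of 86.2 RPKM, compared to 4.35 to 9 RPKM in the other 8 Ribo-seq libraries. The defining cortical markers were present in every group. The summed RNA level of 7 genes was 623 to 668 FPKM in Ctrl, 723 to 740 FPKM in *F*-cKO and 700 to 722 FPKM in *M*-cKO. Of the 7, 3 were called higher in *F*-cKO, and 2 higher and 1 lower in *M*-cKO. The 7 ganglionic eminence markers, which include *Gad1*, *Gad2* and the *Dlx* genes of interneurons, summed to 121 to 164 FPKM in *M*-cKO, compared to 85.9 to 87.1 FPKM in Ctrl and 82.3 to 113 FPKM in *F*-cKO, and all 7 were called higher in *M*-cKO and 3 of 7 in *F*-cKO. In bulk tissue, more or fewer cells of a type cannot be told apart from more or less RNA per cell.

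The members spanned a wide range of RNA levels in Ctrl cortices. *Bax*, which opens the mitochondrial outer membrane during cell death, had the highest level at 67.5 FPKM ± 3.1 (SD, n = 3). It was followed by *Trp53* at 19.5 ± 1.2, *Bbc3* at 17.3 ± 0.66, *Mdm2* at 15 ± 0.62, *Trp53inp1* at 14 ± 1.6 and *Ccng1* at 11.2 ± 0.99 FPKM. *Phlda3* (5.25 ± 0.23 FPKM) and *Cdkn1a* (2.65 ± 0.22 FPKM) were lower, and *Eda2r* (0.572 ± 0.11 FPKM) and *Pmaip1* (0.483 ± 0.17 FPKM) were the lowest. Neighbours in this order did not overlap between Ctrl libraries, except *Mdm2* with *Trp53inp1* and *Eda2r* with *Pmaip1*. In Ribo-seq *Bax* and *Trp53* again led, at 112 ± 27 and 30.3 ± 2 RPKM, and *Bbc3* took a lower place at 4.73 ± 0.86 RPKM. The ratio of footprint level to RNA level, the translational efficiency (TE), was 1.66 for *Bax* and 1.55 for *Trp53*, and 0.273 for *Bbc3*, the lowest of the members in Ctrl (errors propagated from both SDs 0.402, 0.138 and 0.0505).

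**Figure D1:**
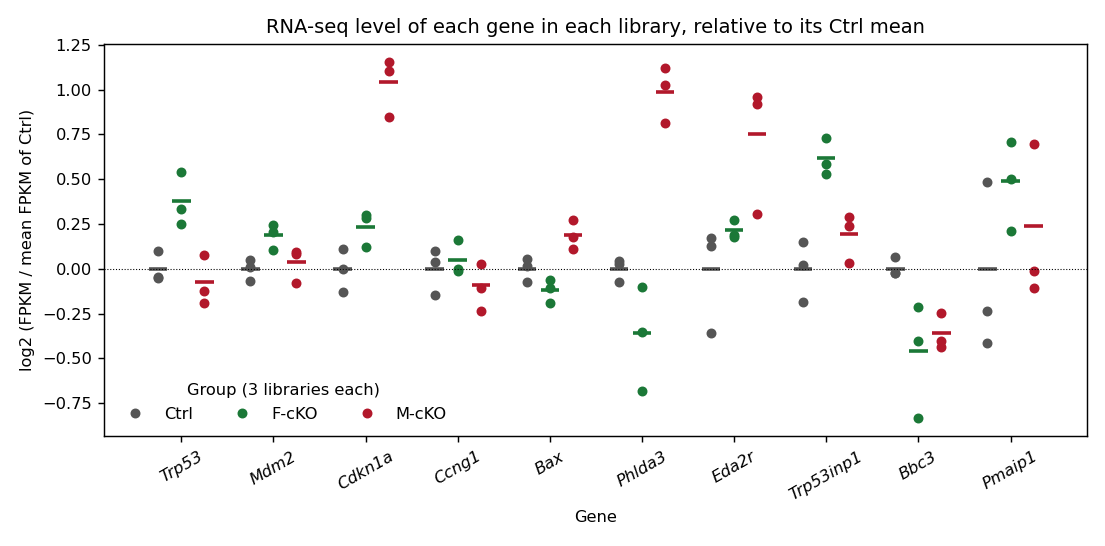
RNA level of each member in each of 9 RNA-seq libraries, as the log2 ratio of its FPKM to the Ctrl mean of the gene; points are libraries, bars are group means. The *M*-cKO libraries lay above all others for *Cdkn1a*, *Phlda3* and *Eda2r*, the *F*-cKO libraries lay above all others for *Trp53* and *Trp53inp1*, and *Bbc3* was below Ctrl in both knockouts.

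In *M*-cKO cortices, 3 of the 10 members had higher RNA than in Ctrl (*Cdkn1a*, *Phlda3* and *Eda2r*) and 1 had lower RNA (*Bbc3*), by edgeR's quasi-likelihood test with Benjamini-Hochberg adjustment over 16968 genes. Over all genes tested, 15.5% were called higher and 14.1% lower in that comparison. In *F*-cKO cortices, 2 members were higher (*Trp53* and *Trp53inp1*) and 1 was lower (*Bbc3*), where 11.5% of all genes were called higher and 9.57% lower. The median log2 fold change of the members was 0.18 in *M*-cKO and 0.19 in *F*-cKO, and that of all genes was near 0 in both. Both comparisons used the same 3 Ctrl libraries.

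**Figure D2:**
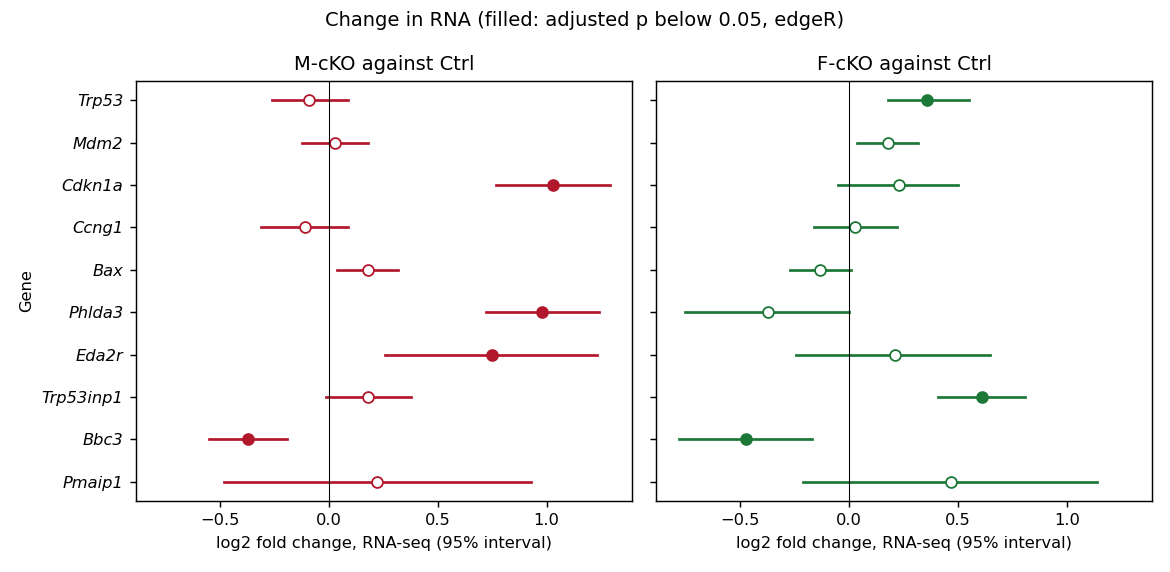
Log2 fold change in RNA against Ctrl with its 95% interval for the 10 members, *M*-cKO left and *F*-cKO right; filled points passed an adjusted p of 0.05 in edgeR's quasi-likelihood test. *Cdkn1a* and *Phlda3* stood near 1 in *M*-cKO, and *Trp53inp1* stood at 0.61 in *F*-cKO.

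*Trp53* itself was higher in *F*-cKO and not in *M*-cKO. Its RNA level was 18.8, 20.9 and 18.9 FPKM in the Ctrl libraries, 24.6, 23.2 and 28.3 FPKM in *F*-cKO and 17.9, 17.1 and 20.6 FPKM in *M*-cKO. All *F*-cKO libraries lay above all others, and the *M*-cKO libraries overlapped Ctrl. The log2 fold change was 0.36 ± 0.08 (SE) in *F*-cKO (adjusted p = 0.0156, edgeR quasi-likelihood test) and −0.09 ± 0.08 in *M*-cKO (adjusted p = 0.465). Without Ctrl replicate 1 or Ctrl replicate 3 the adjusted p for *F*-cKO was 0.0531 or 0.0586. The pseudogene *Trp53-ps* held 21 to 68 reads per library, 1.47% to 3.98% of those of *Trp53*, and reads may be split between the copies.

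*Mdm2*, at once a target and the main inhibitor of p53, moved little. Its RNA level was 15.1, 15.5 and 14.3 FPKM in Ctrl, 16.1, 17.3 and 17.8 FPKM in *F*-cKO and 15.9, 16 and 14.2 FPKM in *M*-cKO. The *F*-cKO libraries lay just above Ctrl, with a log2 fold change of 0.18 (95% interval 0.04 to 0.32, adjusted p = 0.0709, edgeR), which passed the threshold without *F*-cKO replicate 1 (adjusted p = 0.0422). In *M*-cKO the log2 fold change was 0.03, with an interval of −0.12 to 0.18, and the libraries overlapped Ctrl.

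*Cdkn1a*, which encodes the cyclin-dependent kinase inhibitor p21, had the largest log2 fold change of the members in *M*-cKO, narrowly above *Phlda3* (1.03 and 0.98). The order turned without *M*-cKO replicate 2 (1.01 for *Cdkn1a* and 1.07 for *Phlda3*) and without Ctrl replicate 3 (0.98 and 1.00). The *Cdkn1a* level was 2.86, 2.65 and 2.42 FPKM in Ctrl, 3.23, 2.88 and 3.26 FPKM in *F*-cKO and 5.9, 5.69 and 4.76 FPKM in *M*-cKO. Every *M*-cKO library lay above every other library, and the *F*-cKO libraries lay slightly above Ctrl. The log2 fold change in *M*-cKO was 1.03 ± 0.12, a 2.04-fold level (adjusted p = 0.000139, edgeR quasi-likelihood test), and this call held in all 11 alternative analyses. In *F*-cKO it was 0.23 ± 0.12 (adjusted p = 0.222). *Ccng1*, encoding cyclin G1, which carries a pair of decamers in its promoter as *Cdkn1a* does, had 11.5, 10.1 and 12 FPKM in Ctrl, 12.5, 11.1 and 11.2 FPKM in *F*-cKO and 11.4, 10.4 and 9.53 FPKM in *M*-cKO. All 3 groups overlapped, and the 95% intervals of the log2 fold change were −0.31 to 0.09 in *M*-cKO and −0.16 to 0.22 in *F*-cKO.

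*Phlda3*, an inhibitor of the Akt growth kinase, rose in *M*-cKO to a 1.97-fold level. The Ctrl libraries had 4.98, 5.41 and 5.35 FPKM, the *F*-cKO libraries 4.89, 4.11 and 3.27 FPKM and the *M*-cKO libraries 10.7, 9.21 and 11.4 FPKM. The *M*-cKO libraries lay above all others and the *F*-cKO libraries below Ctrl, so the knockouts stood on opposite sides of Ctrl. In *M*-cKO its log2 fold change was 0.98 ± 0.12 (adjusted p = 0.000186, edgeR, held in all 11 alternatives) and −0.37 ± 0.17 in *F*-cKO (adjusted p = 0.144).

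*Eda2r*, a receptor of the tumour necrosis factor family that binds ectodysplasin A2, was higher in *M*-cKO from a low level. Its RNA was 0.447, 0.624 and 0.644 FPKM in Ctrl, 0.652, 0.647 and 0.692 FPKM in *F*-cKO and 1.11, 1.08 and 0.706 FPKM in *M*-cKO, where replicate 3 was close to Ctrl. The log2 fold change was 0.75 ± 0.22 (adjusted p = 0.026, edgeR quasi-likelihood test). It was no longer called without Ctrl replicate 1 (adjusted p = 0.101), *M*-cKO replicate 1 (0.0851) or *M*-cKO replicate 2 (0.0944). A pseudogene, *Gm18111*, overlaps *Eda2r* in the RefSeq annotation, and the library kit does not mark strand.

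*Trp53inp1*, whose product assists p53 in stress responses and autophagy, had the largest increase of the members in *F*-cKO that passed the test. Its level was 15.5, 14.2 and 12.3 FPKM in Ctrl, 20.2, 23.2 and 21 FPKM in *F*-cKO and 16.5, 17.1 and 14.3 FPKM in *M*-cKO. All *F*-cKO libraries lay above all others. Against Ctrl, *F*-cKO had a log2 fold change of 0.61 ± 0.09 (adjusted p = 0.0036, edgeR, held in all 11 alternatives) and 0.18 ± 0.09 in *M*-cKO (adjusted p = 0.149). In *M*-cKO it was called with no filter on low counts (adjusted p = 0.0292) and without *M*-cKO replicate 3 (0.0463).

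Of the 3 members that act directly in mitochondrial cell death, *Bbc3* alone passed the test of RNA against Ctrl. *Bax* had 64.1, 68.3 and 70.1 FPKM in Ctrl, 64.6, 62.6 and 59.2 FPKM in *F*-cKO and 76.3, 73 and 81.4 FPKM in *M*-cKO, with the *M*-cKO libraries above all others. Its log2 fold change in *M*-cKO was 0.18 ± 0.06 (adjusted p = 0.058, edgeR), and it was called with no filter on low counts (0.0294) and with all 3 groups in one fit (0.0425). *Bbc3*, which encodes the BH3-only protein Puma, was lower in both knockouts, with 17, 17 and 18.1 FPKM in Ctrl, 14.9, 13.1 and 9.7 FPKM in *F*-cKO and 12.8, 13.1 and 14.6 FPKM in *M*-cKO.

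No knockout library reached the lowest Ctrl value of *Bbc3*. Its log2 fold change was −0.37 ± 0.08 in *M*-cKO (adjusted p = 0.00669, edgeR, held in all 11 alternatives) and −0.47 ± 0.13 in *F*-cKO (adjusted p = 0.0339). The *F*-cKO call held in 6 of 11 alternatives, and was lost, among others, without Ctrl replicate 1 (adjusted p = 0.0768), 2 (0.0684) or 3 (0.105) and without *F*-cKO replicate 2 (0.0794), the library that held more *Fto* RNA. *Pmaip1*, encoding the BH3-only protein Noxa, had 18 to 47 reads per RNA-seq library and overlapped in all 3 groups, with 0.363 to 0.675 FPKM in Ctrl, 0.56 to 0.79 FPKM in *F*-cKO and 0.449 to 0.783 FPKM in *M*-cKO. Its log2 fold changes had wide intervals, from −0.48 to 0.93 in *M*-cKO and from −0.21 to 1.14 in *F*-cKO.

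The knockouts were also compared with each other directly, and 5 members differed, in a contrast where 13.1% of all genes were called higher in *M*-cKO and 14.3% lower. *Phlda3* was higher in *M*-cKO than in *F*-cKO by a log2 difference of 1.34 ± 0.16 (adjusted p = 0.000374, edgeR quasi-likelihood test), *Cdkn1a* by 0.79 ± 0.12 (0.00125) and *Bax* by 0.30 ± 0.06 (0.00747). *Trp53* was lower in *M*-cKO by −0.46 ± 0.09 (adjusted p = 0.00579, edgeR), and *Trp53inp1* by −0.44 ± 0.08 (0.00361). All 5 calls held in the 11 alternatives, including the fit without *F*-cKO replicate 2. The *M*-cKO and *F*-cKO libraries did not overlap for any of the 5 genes. They also did not overlap for *Mdm2* and *Eda2r*, which were not called, so this trait does not mark out the 5.

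The footprints of the members were compared next. In *M*-cKO, 1 member, *Phlda3*, was called higher and none lower, where 7.13% of all 14314 genes were called higher and 7.5% lower. *Phlda3* had 2.85, 2.14 and 3.2 RPKM in Ctrl and 4.32, 5.02 and 6.42 RPKM in *M*-cKO, with no overlap, and a log2 fold change of 0.96 ± 0.24 (adjusted p = 0.0382, edgeR quasi-likelihood test). The call held in 5 of 12 alternatives, and was lost, among others, without Ctrl replicate 1 (adjusted p = 0.1), 2 (0.137) or 3 (0.0717), without *M*-cKO replicate 2 (0.0638) or 3 (0.0685), and with all 3 groups in one fit (0.305).

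*Cdkn1a* footprints followed the RNA in 2 of the 3 *M*-cKO libraries. Its level was 5.03, 3.55 and 3.17 RPKM in Ctrl and 8.17, 8.16 and 4.31 RPKM in *M*-cKO, where replicate 3 lay within the Ctrl range. The log2 fold change was 0.83 ± 0.29 (adjusted p = 0.0928, edgeR), and it was called by DESeq2 (0.0159) and, at 1.09, without *M*-cKO replicate 3 (0.0201). *Trp53* footprints were below Ctrl in every *M*-cKO library, with 31.6, 28 and 31.3 RPKM in Ctrl and 23.4, 24.6 and 22.4 RPKM in *M*-cKO, although its RNA overlapped Ctrl. Its log2 fold change was −0.35 ± 0.10 (adjusted p = 0.0535, edgeR), just outside the threshold, and DESeq2 called it (0.023).

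*Ccng1* footprints were 11.4, 14.3 and 15.3 RPKM in Ctrl and 7.99, 6.35 and 12 RPKM in *M*-cKO, so that replicate 3 overlapped Ctrl. The log2 fold change was −0.63 ± 0.22 (adjusted p = 0.0912, edgeR); DESeq2 called it (0.0268), as did the fit without *M*-cKO replicate 3 (0.0167). *Trp53inp1* footprints were all below Ctrl in *M*-cKO, at 5.8 to 7.55 RPKM compared to 7.79 to 8.67 RPKM, with a log2 fold change of −0.24 ± 0.11 (adjusted p = 0.159, edgeR). The other members overlapped Ctrl in Ribo-seq. *Eda2r* had a log2 fold change of 0.00 with an interval of −0.59 to 0.59, at 0.252 to 0.34 RPKM in *M*-cKO and 0.256 to 0.332 RPKM in Ctrl, and *Bbc3* had 0.02 with an interval of −0.59 to 0.62.

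**Figure D3:**
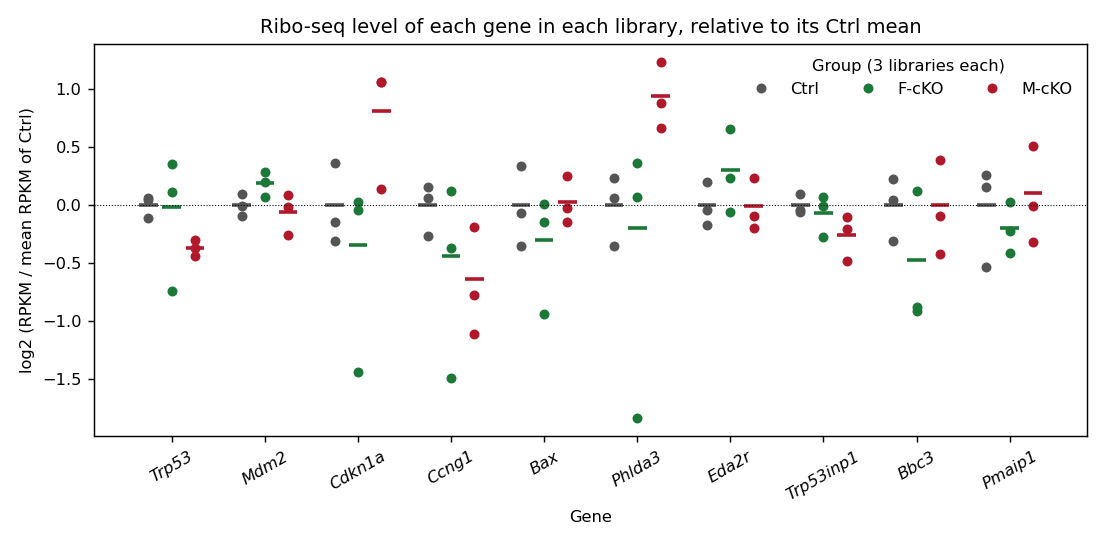
Footprint level of each member in each of 9 Ribo-seq libraries, as the log2 ratio of its RPKM to the Ctrl mean of the gene; points are libraries, bars are group means. *Phlda3* lay above Ctrl in all 3 *M*-cKO libraries, *Trp53* lay below Ctrl in all 3, and *F*-cKO replicate 2 gave the lowest points of *Cdkn1a*, *Ccng1*, *Bax*, *Phlda3* and *Trp53*.

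In *F*-cKO no member was called in Ribo-seq, and 0% of the 14335 genes tested were called in either direction by edgeR, although 227 genes were higher and 91 lower at an unadjusted p below 0.05, none of them a member. This fit did not call the deleted *Fto* either, at a log2 fold change of −2.67 ± 0.25 (adjusted p = 0.35, edgeR). The lack of calls therefore does not show that footprints of the members were unchanged. DESeq2 called 6 genes, none of them a member. *F*-cKO replicate 2, the library with the lowest depth and the high endothelial sum, stood apart: its *Cdkn1a* level was 1.45 RPKM, compared to 3.99 and 3.81 RPKM in the other *F*-cKO libraries, its *Phlda3* level 0.764 RPKM compared to 2.87 and 3.5 RPKM, and its *Trp53* level 18.1 RPKM compared to 38.7 and 32.8 RPKM. Without it, the log2 fold change moved from −0.33 to −0.03 for *Cdkn1a*, from −0.17 to 0.20 for *Phlda3*, and from 0.00 to 0.21 for *Trp53*, and no member was called. Between *M*-cKO and *F*-cKO footprints, 0% of genes were called by edgeR, with 710 genes higher and another 444 lower at an unadjusted p below 0.05, *Cdkn1a* (log2 difference 1.18 ± 0.43, adjusted p = 0.586) being the only member among them. *Fto* was not called there by edgeR either (log2 difference 2.85 ± 0.23, adjusted p = 0.107). DESeq2 called 206 genes in that comparison and no member.

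TE was tested as the interaction of assay and genotype over 12 libraries. No member was called in *M*-cKO, where 1.89% of 13208 genes had a higher and 1.18% a lower TE, and none in *F*-cKO, where 0% of genes were called by edgeR (411 higher and 817 lower at an unadjusted p below 0.05, and 44 called by DESeq2). The TE change of *Phlda3* in *M*-cKO was 0.05 on the log2 scale with a 95% interval of −0.50 to 0.59, and that of *Cdkn1a* was −0.14 with an interval of −0.85 to 0.57. *Trp53inp1* had the smallest TE p among the members in both knockouts (0.0262 in *M*-cKO and 0.0039 in *F*-cKO, unadjusted). The ratio stood at 0.58 in Ctrl cortices, compared to 0.361 in *F*-cKO and 0.426 in *M*-cKO cortices, with log2 changes of −0.66 ± 0.18 (adjusted p = 0.431, edgeR) in *F*-cKO and −0.36 ± 0.14 (adjusted p = 0.171) in *M*-cKO. *Ccng1* had a log2 TE change of −0.44 ± 0.24 in *M*-cKO (adjusted p = 0.317, edgeR), which reached −0.75 and was called without Ribo-seq *M*-cKO replicate 3 (0.0339).

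**Figure D4:**
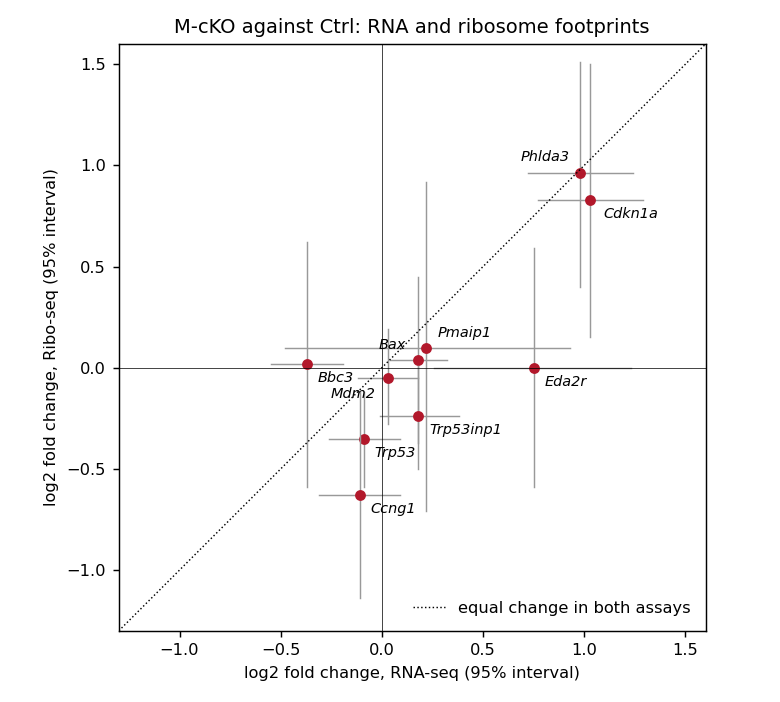
Log2 fold change of the 10 members in *M*-cKO against Ctrl, RNA-seq on the x axis and Ribo-seq on the y axis, with 95% intervals as lines. *Cdkn1a* and *Phlda3* lay near the dotted line of equal change, and *Eda2r*, at 0.75 in RNA and 0.00 in footprints, was the farthest below it.

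The wider p53 pathway was read from 6 lists of 105 genes, of which 99 were tested in RNA-seq. In *M*-cKO 39 of them were higher and 5 lower (15.5% and 14.1% of all genes), and in *F*-cKO 32 were higher and 4 lower (11.5% and 9.57% of all genes). These shares are the background for each list below. The total includes 15 mitotic genes that active p53 is known to lower, and without them 27 of 84 were higher and 5 lower in *M*-cKO, and 18 higher and 4 lower in *F*-cKO. The 84 still included genes of cell division, such as *Ckap2*, which was higher in both knockouts. Of the 23 p53 regulators, *M*-cKO had 9 higher and 1 lower, and *F*-cKO 7 higher and none lower. *Hipk2*, a kinase that phosphorylates p53, had 3.95, 3.16 and 2.51 FPKM in Ctrl, 8.5, 7.86 and 8.61 FPKM in the *F*-cKO libraries and 7.95, 6.36 and 6.23 FPKM in those of *M*-cKO. It was higher in both knockouts, by a log2 fold change of 1.08 ± 0.14 in *M*-cKO (adjusted p = 0.000312, edgeR) and 1.36 ± 0.13 in *F*-cKO (0.00293). *Usp10*, which removes ubiquitin from p53, rose by 0.56 ± 0.06 in *M*-cKO (adjusted p = 8.28e-05, edgeR), and *Ppm1d*, a phosphatase that is itself a p53 target and switches p53 off, rose by 0.44 ± 0.08 (0.00167). *Mdm4*, the partner of Mdm2 in restraining p53, had 11.4, 12 and 12.3 FPKM in Ctrl and 9.37, 9.8 and 7.7 FPKM in *M*-cKO, a log2 fold change of −0.42 ± 0.08 (adjusted p = 0.00394, edgeR).

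Among 41 further p53 targets tested, 13 were higher and 3 lower in *M*-cKO, and 6 were higher and 2 lower in *F*-cKO, where the share called higher was near, and that called lower below, the share over all genes. In the arrest and growth list, 5 of 14 were higher and 2 lower in *M*-cKO, and 4 higher and 1 lower in *F*-cKO. *Dyrk3*, a kinase, was 13.3, 13.2 and 14.6 FPKM in *M*-cKO compared to 6.96, 6.5 and 6.2 FPKM in Ctrl (log2 fold change 1.05 ± 0.08, adjusted p = 1.97e-05, edgeR). *Sesn2*, a stress-induced brake on growth signalling, rose in *M*-cKO by 0.98 ± 0.19 (0.00304), *Ckap2*, a spindle protein, by 0.77 ± 0.10 (0.000223), and *Plk2*, a polo-like kinase, fell by 0.67 ± 0.07 on the log2 scale (7.04e-05). In *F*-cKO *Ckap2* was higher by 0.74 ± 0.10 (adjusted p = 0.0035, edgeR), and the knockouts differed by 0.02 (95% interval −0.17 to 0.21). *Plk2* was lower there by a log2 fold change of −0.32 ± 0.09 (adjusted p = 0.0292, edgeR), a call lost without Ctrl replicate 1 (0.0841) or 3 (0.103) or *F*-cKO replicate 2 (0.0827) or 3 (0.0512). *Sfn*, which encodes 14-3-3 sigma, was lower in *M*-cKO (−0.81 ± 0.22, adjusted p = 0.0177, edgeR), and was no longer called with all 3 groups in one fit (0.0701) or without Ctrl replicate 3 (0.0684) or *M*-cKO replicate 1 (0.058) or 2 (0.0611). *Dyrk3*, *Sesn2* and *Ckap2* were also higher, and *Plk2* lower, in *M*-cKO footprints, by log2 fold changes of 0.91, 0.79, 0.67 and −0.74. With all 3 groups in one fit none of these 4 footprint calls held (adjusted p = 0.115 to 0.228, edgeR), that of *Ckap2* was lost without Ctrl replicate 2 (0.0593), and that of *Sesn2* without Ctrl replicate 1 (0.059), 2 (0.0865) or 3 (0.0598).

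In the list of targets for cell death, 3 of 10 were higher in *M*-cKO and 2 of 10 in *F*-cKO, and none was lower in either. *Zmat3*, an RNA-binding protein, rose in *M*-cKO by 0.53 ± 0.08 (adjusted p = 0.000464, edgeR) and *Aen*, a nuclease of apoptotic cells, by 0.45 ± 0.06 (0.000476). *Zmat3* was also higher in *F*-cKO, by 0.30 ± 0.07 (adjusted p = 0.0213, edgeR), a call lost without Ctrl replicate 3 (0.0746) or *F*-cKO replicate 2 (0.0631). *Tnfrsf10b*, the death receptor for Trail, rose from 0.294 to 0.328 FPKM in Ctrl to 0.44 to 0.55 FPKM in *M*-cKO (log2 fold change 0.67 ± 0.21, adjusted p = 0.0319, edgeR), a call that was lost in 7 of 11 alternatives, among them DESeq2 (0.103) and the fits without Ctrl replicate 1 (0.0712), 2 (0.062) or 3 (0.0876) and without *M*-cKO replicate 1 (0.108) or 2 (0.0834). Its footprints rose further, with 0.111, 0.168 and 0.241 RPKM in Ctrl and 2.09, 2.67 and 0.884 RPKM in *M*-cKO, a log2 fold change of 3.46 ± 0.49 (adjusted p = 0.00985) and a TE change of 2.87 ± 0.54 (0.0176). These Ctrl levels lay below those of *Eda2r* (0.256 to 0.332 RPKM), where counting error limits the comparison. The *F*-cKO libraries had 0.301, 0.783 and 0.0734 RPKM. In both knockouts the library with the lowest Ribo-seq depth, replicate 2, had the highest level, and the part of depth was not tested. The *Tnfrsf10b* footprint call was lost in 2 of 12 alternatives, all 3 groups in one fit (0.121) and without Ctrl replicate 2 (0.0593), and the TE call in 5 of 17, with all 3 groups in one fit (0.264) and without RNA-seq Ctrl replicate 3 (0.0503), RNA-seq *M*-cKO replicate 1 (0.0504) or 3 (0.0506) or Ribo-seq Ctrl replicate 2 (0.0504). Of the 17 targets for repair and metabolism, 5 were higher and 1 lower in *M*-cKO, among them *Gpx1* (glutathione peroxidase, 0.32 ± 0.08), *Sulf2* (a heparan sulfatase, 0.38 ± 0.08), *Slc19a2* (a thiamine transporter, 0.54 ± 0.14) and *Ddb2* (a damage sensor of nucleotide excision repair, −0.44 ± 0.15, adjusted p = 0.0479, edgeR). The *Ddb2* call was lost in 8 of 11 alternatives, including DESeq2 (0.0533), no filter (0.054) and the fits without Ctrl replicate 1 (0.078), 2 (0.143) or 3 (0.0829) and without *M*-cKO replicate 2 (0.0938) or 3 (0.139), and that of *Slc19a2* in 1, without *M*-cKO replicate 2 (0.0635). In *F*-cKO none of these 17 was higher and 1 was lower.

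Of the Bcl-2 family and caspases, 5 of 20 were higher and 1 was lower in *M*-cKO, and 5 were higher and 2 lower in *F*-cKO. The higher genes in *M*-cKO included both the death inhibitor *Bcl2l1*, which encodes Bcl-xL (0.52 ± 0.06, adjusted p = 0.000186, edgeR), and the BH3-only death genes *Bmf* (0.56 ± 0.11, 0.00339) and *Bcl2l11* (0.49 ± 0.11, 0.0076). *Bmf* (0.49 ± 0.11, adjusted p = 0.0124, edgeR) and *Bcl2l11* (0.44 ± 0.11, 0.0201) were higher in *F*-cKO as well, the latter not without Ctrl replicate 2 (0.0502) or 3 (0.0746) or *F*-cKO replicate 2 (0.0743). The TE of *Bcl2l1* was lower in *M*-cKO (−0.60 ± 0.12, adjusted p = 0.0177, edgeR; lost in 6 of 18 alternatives, with all 3 groups in one fit (0.109) and without RNA-seq Ctrl replicate 2 (0.0557) or 3 (0.056), RNA-seq *M*-cKO replicate 1 (0.0581) or 3 (0.0513), or Ribo-seq Ctrl replicate 2 (0.0562)), with 15.7, 17.4 and 18.2 RPKM in Ctrl and 15.9, 15.2 and 14.6 RPKM in *M*-cKO.

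Mitotic and cell cycle genes, a group that p21 is known to lower when p53 is active, were higher in both knockouts. In *M*-cKO 12 of 15 were higher and none lower, with a median log2 fold change of 0.51, and in *F*-cKO 14 of 15 were higher, with a median of 0.66. The proliferation marker *Mki67* had 13.1, 12.1 and 11.4 FPKM in Ctrl, 21.6, 20.9 and 28.9 FPKM in *F*-cKO and 24, 22.6 and 18 FPKM in *M*-cKO. Its log2 fold change was 0.81 ± 0.10 in *M*-cKO (adjusted p = 0.000163, edgeR) and 0.95 ± 0.12 in *F*-cKO (0.00293), and *Mybl2*, a regulator of late cell cycle genes, and *Birc5*, encoding survivin, rose by 1.01 ± 0.14 and 0.76 ± 0.10 in *M*-cKO. The summed level of 4 intermediate progenitor markers, of which 1 was called higher in *M*-cKO and 3 in *F*-cKO, was 121 to 192 FPKM in Ctrl, 216 to 268 FPKM in *F*-cKO and 209 to 225 FPKM in *M*-cKO, while that of 6 radial glia markers was 734 to 819, 692 to 759 and 534 to 572 FPKM. The radial glia sum did not follow the direction of most of its called genes, since 2 of the 6 were called higher and 1 lower in *M*-cKO, and 4 higher and 1 lower in *F*-cKO. Of 6 cortical neuron markers, 5 were higher and 1 lower in *M*-cKO, with sums of 868 to 892 FPKM compared to 705 to 715 FPKM in Ctrl. In *F*-cKO 2 of the 6 were higher and none lower, with sums of 771 to 791 FPKM, also above Ctrl. In *F*-cKO, 3 of 6 meningeal markers were lower (2.97 to 9.78 compared to 11.8 to 22.2 FPKM), and the sum of 6 endothelial markers was 36.4 to 41.9 compared to 48.6 to 52.3 FPKM, with 1 of 6 called lower. The part of these cell types, and of the cortical and ganglionic eminence markers, in the values of the members and of the lists was not tested.

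**Figure D5:**
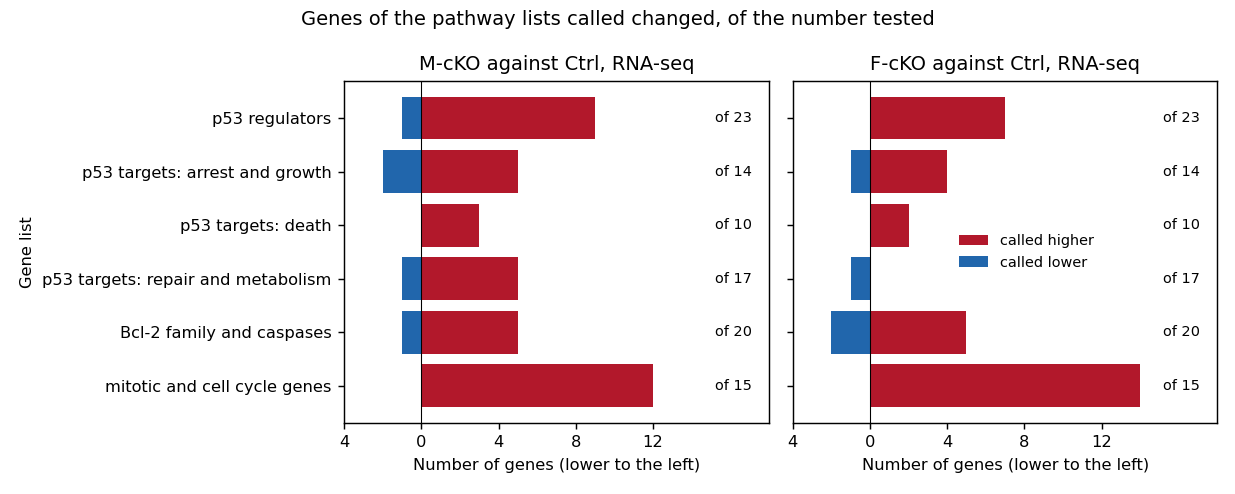
Number of genes called higher (right of 0) and lower (left of 0) in RNA-seq against Ctrl for each of 6 gene lists, *M*-cKO and *F*-cKO, with the number tested beside each bar. The mitotic and cell cycle list held the most called genes in both, 12 and 14 of 15.

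*M*-cKO footprints of 12 of 93 listed genes were higher and those of 6 lower, the latter near the share of all genes (7.13% higher and 7.5% lower), and none of 94 was called in *F*-cKO. Without the mitotic genes, 7 of 78 were higher and 6 lower in *M*-cKO footprints. In *F*-cKO RNA-seq the counts rested in part on single libraries, and were 17 higher and 1 lower without Ctrl replicate 3, and 20 and 1 without *F*-cKO replicate 2. In *M*-cKO Ribo-seq they were 3 and 2 without Ctrl replicate 1, 1 and 1 without Ctrl replicate 2, 4 and 2 without Ctrl replicate 3, 5 and 6 without *M*-cKO replicate 1, and 12 and 3 without *M*-cKO replicate 2. Calls over all genes fell in the same fits. In *F*-cKO RNA-seq they went from 1955 higher and 1621 lower to 984 and 559, and 1148 and 812. In *M*-cKO Ribo-seq they went from 1020 and 1073 to 230 and 160, 115 and 62, 269 and 192, 500 and 380, and 771 and 524, in the order above.

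A mean of the standardised RNA levels of the 9 members other than *Trp53* was compared with every other gene over the 9 RNA-seq libraries. The genes most like it were *Mgat5* (Pearson r = 0.975), *Ksr2* (0.974), *Gad2* (0.971), *Fam160a2* (0.963) and *Tmem74b* (0.958), out of 17366 genes, as a description with no test. The libraries share their group and depth, and *Gad2* is also on the list of ganglionic eminence markers. When any member was left out of the mean, only 1 or 2 of these 5 genes stayed among the first 5. The members were themselves ordered in different ways: the *M*-cKO libraries were highest for *Cdkn1a*, *Phlda3*, *Eda2r* and *Bax*, the *F*-cKO libraries were highest for *Trp53*, *Mdm2* and *Trp53inp1*, and *Bbc3* was highest in Ctrl.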

How the data were processed

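RNA-seq and Ribo-seq of E15.5 cortices were grouped by the genotype and assay in the labels. The authors aligned 150 bp paired-end RNA-seq reads with HISAT2 2.0.5, mapped Ribo-seq fragments with TopHat2 and counted these with HTSeq, and the submitters' processing notes name build mm10. The RNA-seq counter and the annotation are not given in the sources used here. The deposited read counts are whole numbers per gene and not normalized. The deposited FPKM (RNA-seq) and RPKM (Ribo-seq) values are scaled by gene length and library size, were made by the authors, and were used for levels. In the Ribo-seq count table, 40490 genes without counts in 8 of 9 libraries were left out and 14348 were used. Symbols were matched for 54723 of 55153 genes.

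Counts were tested in R 4.3.3 with edgeR 4.0.16 (filterByExpr with a minimum count of 10 and a minimum total of 15, TMM scaling, quasi-likelihood test, Benjamini-Hochberg adjustment over all genes, called below 0.05). Each comparison used its own 6 libraries, and TE was tested as an assay-by-genotype interaction over 12 libraries, in place of the study's RiboDiff. Intervals are 95% intervals of the fit. Alternatives were DESeq2 1.42.0, RLE scaling, no filter, a joint fit of the 3 groups, a block for replicate number, leaving out single libraries, and restricting footprints and TE to protein-coding genes. The ratio of group means of the deposited FPKM or RPKM was added after the data were seen. Depth and counting error limit rare genes such as *Pmaip1* and *Eda2r*.

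The members and gene lists were chosen with earlier results of these data known. Genes named are the members, *Mettl3* and *Fto*, in each pathway list the 3 genes with the smallest p in each direction among those called in *M*-cKO RNA-seq, and the 5 genes most like the members. The result of 1 gene that this rule names is not reported here. The fits were tested on simulated data. Promoter windows and overlaps came from RefSeq on GRCm38.p6.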

Additional observations from a re-analysis of the deposited data

Results flagged for a closer look

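The RNA response of 5 members differed between the knockouts by the test of *M*-cKO against *F*-cKO itself (edgeR quasi-likelihood test, Benjamini-Hochberg adjustment over all genes, 3 libraries a group). The log2 difference, *M*-cKO minus *F*-cKO, was 1.34 for *Phlda3* (adjusted p = 0.000374), 0.79 for *Cdkn1a* (0.00125) and 0.30 for *Bax* (0.00747). It was −0.46 for *Trp53* (adjusted p = 0.00579, edgeR) and −0.44 for *Trp53inp1* (0.00361). In the 11 alternatives the highest adjusted p of these genes ranged from 0.00355 for *Phlda3* to 0.0297 for *Trp53*. The summed level of the ganglionic eminence markers also differed between these groups, at 121 to 164 FPKM in *M*-cKO and 82.3 to 113 FPKM in *F*-cKO, as did that of the radial glia markers, at 534 to 572 and 692 to 759 FPKM (1 of 6 higher and 4 lower). Of the other lists, 3 of 6 meningeal markers (median log2 difference 1.43) and 3 of 6 erythroid markers (0.53) were higher in *M*-cKO than in *F*-cKO, while 3 of 7 cortical identity markers, 2 of 4 intermediate progenitor markers and 6 of 15 mitotic genes were lower and 1 mitotic gene higher. The part of any of these in the 5 differences was not tested.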

How the results depend on the processing

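The calls of *Cdkn1a*, *Phlda3* and *Bbc3* in *M*-cKO RNA, of *Trp53inp1* in *F*-cKO RNA and of the 5 members between the knockouts held in all 11 alternatives; for the others that follow, the cause was not tested. With no filter on low counts, 5 members were called higher in *M*-cKO RNA. With the replicate number as a block, *F*-cKO RNA had 0 members (*Bbc3* at adjusted p = 0.0592, edgeR) and 1 listed gene lower and 2130 genes called (3576 without the block), *M*-cKO Ribo-seq had 0 members (*Phlda3* at 0.0583) and 7 listed genes higher and 1319 genes called (2093 without), and *Eda2r* and *Bbc3* footprints moved to −0.00 and −0.01; same-numbered libraries correlated at −0.277 to 0.182, so the numbers were not taken to pair them. With DESeq2, *M*-cKO Ribo-seq had 2 members higher, 2 lower and 19 listed genes higher, *F*-cKO Ribo-seq 6 genes, *M*-cKO against *F*-cKO footprints 206, TE 1037 genes in *M*-cKO (405 by edgeR), with 0 listed genes higher, and 44 in *F*-cKO, and *Fto* stood at −1.20 in RNA (adjusted p = 0.067) and −2.68 in footprints. With all 3 groups in one fit, *M*-cKO Ribo-seq had 0 members, 0 listed genes in either direction and 35 genes called, *Mettl3* at −0.53 (0.118), *F*-cKO Ribo-seq 1 gene (*Fto*, −2.67), the knockouts' footprints 25, and TE in *M*-cKO 11, none of them listed.

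Leaving out single libraries gave these ranges. In *M*-cKO RNA, 3 to 4 listed genes were lower and *Pmaip1* lay between −0.07 and 0.55. In *F*-cKO RNA, 1 to 3 members were higher and 0 to 1 lower, 17 to 32 listed genes higher and 1 to 4 lower, 1543 to 3474 genes were called, *Ccng1* lay between −0.04 and 0.08 and *Fto* between −1.84 and −0.91. Between the knockouts' RNA, 2767 to 4566 genes were called and *Bbc3* lay between −0.05 and 0.24. In *M*-cKO Ribo-seq, 0 to 1 members were higher and 0 to 1 lower, 1 to 14 listed genes higher and 1 to 6 lower, and 177 to 2547 genes were called; *Mdm2* lay between −0.09 and 0.04, *Bax* −0.08 and 0.24, *Eda2r* −0.10 and 0.13, *Bbc3* −0.24 and 0.22, *Pmaip1* −0.12 and 0.30, and *Mettl3* −0.57 and −0.49. In *F*-cKO Ribo-seq 0 to 1 genes were called, *Trp53* lay between −0.18 and 0.21, *Phlda3* −0.53 and 0.20, *Trp53inp1* −0.12 and 0.15, and *Fto* −2.81 and −2.48, and between the knockouts' footprints 0 to 5 genes were called. For TE in *M*-cKO, 0 to 1 members were lower, 0 to 2 listed genes higher and 0 to 6 lower, and 65 to 1054 genes were called, with *Cdkn1a* between −0.33 and 0.09 and *Phlda3* between −0.15 and 0.19; in *F*-cKO 0 to 15 genes were called. Of the 5 genes most like the members, 1 to 2 stayed. Ribo-seq depth was lowest in *F*-cKO replicate 2 and *M*-cKO replicate 2 (10973699 and 13764136 counts), and its part in the footprint and TE comparisons was not tested.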
